A study of Mus musculus with 6 samples.

Results

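Fragments of the glycine tRNA with the anticodon CCC (Gly-CCC) were examined in small RNA libraries of mouse brain. The table of tRNA-derived small RNAs (tDRs) gives each fragment an ID and the names of the tRNAs that it could come from, its parents. An ID was taken as Gly-CCC when all of its parents were Gly-CCC tRNAs and at least 1 was a mature tRNA. This held for 14 of the 591 IDs, or 2.37%. The mice were of the C57BL/6 inbred strain, and the brains were taken at 3 months (n = 3 libraries) and at 22 months of age (n = 3 libraries), with no treatment or mutation named in the labels. The labels do not say whether a library is 1 animal, so the p-values cover only the variation among these libraries, part of which may be technical.

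A tRNA carries an amino acid to the ribosome and pairs with the codon through its anticodon. The anticodon CCC reads the glycine codon GGG. Cells can cut mature tRNAs and tRNA precursors into shorter RNAs, often in the anticodon loop or in the arms on either side, and fragments from the 5′ side of glycine tRNAs are among those most often seen in small RNA libraries. Before a tRNA is used, its 3′ end receives the letters CCA, which the gene does not encode, so a fragment that reaches CCA derives from a tRNA past that step.

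The 7 mature Gly-CCC parents have 5 distinct sequences of 74 nt, and these fall into 3 kinds, printed because the values are described by kind. Only the parents' sequences are deposited, and the fragments themselves have none. Gly-CCC-2-1, Gly-CCC-3-1, Gly-CCC-4-1 and Gly-CCC-5-1 are near copies of Gly-GCC-2-1, a glycine tRNA with the anticodon GCC, which is given first as the reference. Capitals mark the letters that differ from it, and T stands for U.
Gly-GCC-2-1: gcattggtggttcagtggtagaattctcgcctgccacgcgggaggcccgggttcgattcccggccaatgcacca
Gly-CCC-2-1: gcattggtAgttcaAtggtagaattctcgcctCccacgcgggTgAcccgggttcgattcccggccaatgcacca
Gly-CCC-3-1: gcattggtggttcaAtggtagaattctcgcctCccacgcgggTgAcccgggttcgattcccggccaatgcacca
Gly-CCC-4-1: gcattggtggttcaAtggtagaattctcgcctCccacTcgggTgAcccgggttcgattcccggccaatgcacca
Gly-CCC-5-1: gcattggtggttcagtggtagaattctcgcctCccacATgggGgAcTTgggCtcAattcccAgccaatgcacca

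Counted from the 5′ end with Gly-GCC-2-1 first, all of these carry G33C, the change in the anticodon. Gly-CCC-2-1, Gly-CCC-3-1 and Gly-CCC-4-1 share G15A, A43T and G45A, and G9A is found in Gly-CCC-2-1 alone. They differ from the reference at 5, 4 and 5 positions, and Gly-CCC-5-1 differs at 10 positions, each after base 32. Gly-CCC-1-1 stands apart, with 24 differences from Gly-GCC-2-1 when the 2 are laid side by side without gaps. Its first 30 bases are printed with capitals for the differences, and its last 25 bases (50 to 74) with capitals for the CCA tail only.
Gly-CCC-1-1, bases 1 to 30: gcGCCgCtggtGTagtggtaTCatGcAAgA
Gly-CCC-1-1, bases 50 to 74: ggttcgattcccgggcggcgcaCCA

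Gly-CCC-1-2 has the same mature sequence as Gly-CCC-1-1, and Gly-CCC-2-2 the same as Gly-CCC-2-1, so fragments of these pairs cannot be told apart. RefSeq's table for GRCm38.p6, the build also called mm10, holds 6 genes for this tRNA, each 71 nt long. Of these, 3 lie within one stretch of chromosome 3: n-TGccc5 at chr3:96351167-96351237, inside the noncoding genes Platr30 and Gm26553 but in none of their exons; n-TGccc1 at chr3:96382911-96382981, inside Gm17575 and Gm26689, also outside exons; and n-TGccc6 at chr3:96424033-96424103, in no annotated gene. The genes n-TGccc3 (chr4:32230250-32230320) and n-TGccc4 (chr6:86403893-86403963) also lie in no annotated gene. The gene n-TGccc7 (chr17:25875088-25875158) lies in the first exon, within the UTR, of Mettl26, and inside Gm26694 but in none of that gene's exons. All 40 bases that follow the tRNA in the precursor named pre-Gly-CCC-1-2 match the Mettl26 transcript there, against 3 of 40 for pre-Gly-CCC-1-1, so this locus was read as Gly-CCC-1-2. The other parent names were not tied to loci here.

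The parent list narrows down where on the tRNA a fragment can lie. A stretch of 15 to 50 nt was taken as allowed when it is found in every parent listed for the ID and in no other parent in the table. By this reading 6 IDs that list mature Gly-CCC-1 only (AS-tDR-008205, AS-tDR-000249, AS-tDR-000251, AS-tDR-008077, AS-tDR-013432 and AS-tDR-012684) lie between bases 23 and 74, and every allowed stretch covers bases 60 to 72. They are called the CCA-end fragments of Gly-CCC-1. Another 3 IDs (AS-tDR-007406, AS-tDR-008138 and AS-tDR-013763) also list the precursors and lie within bases 1 to 71, the body of Gly-CCC-1. Gly-CCC-2 to 4 have 4 IDs. AS-tDR-009892 must cover bases 45 to 72 and so ends somewhere within the CCA tail, while AS-tDR-011558, which names Gly-CCC-2 alone, must cover bases 9 to 15. AS-tDR-005361 and AS-tDR-013224 can lie either in bases 10 to 37 or in bases 39 to 71. The last ID, AS-tDR-010629, names only Gly-CCC-5-1 and its precursor, starts at base 57 or before and ends at base 33 or after. Such a stretch exists for 502 of the 591 IDs, or 84.9%, so the reading is a description of the parent lists and not a measured fragment end.

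**Figure D1:**
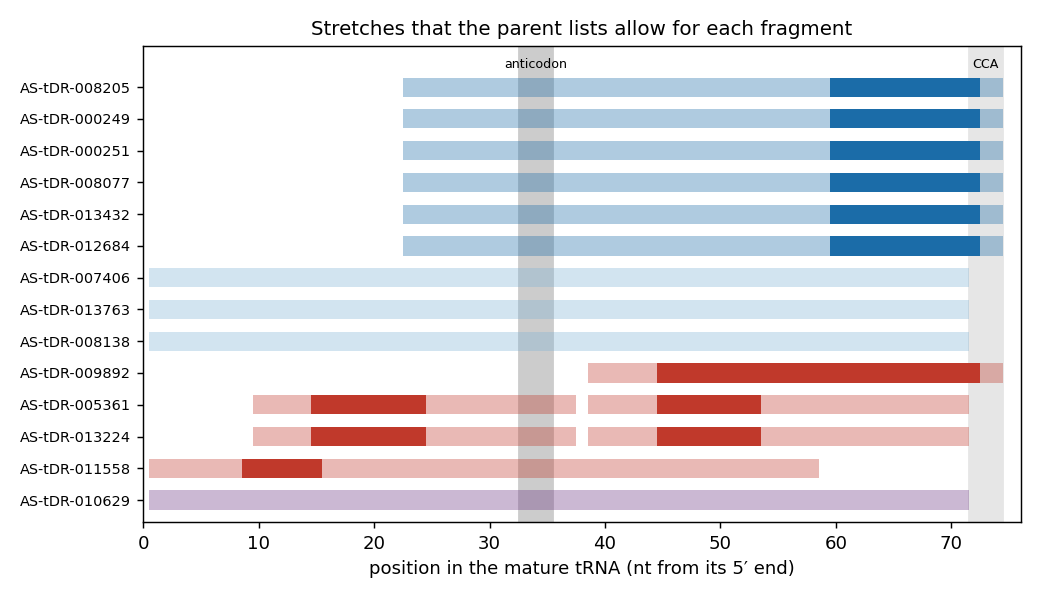
Stretches of the 74-nt mature tRNA in which each Gly-CCC fragment can lie according to its list of parents. The horizontal axis is the position from the 5′ end in nt, pale bars are all allowed positions, dark bars are bases that every allowed fragment covers, and grey columns mark the anticodon (bases 33 to 35) and the CCA tail. Blue is Gly-CCC-1 with the CCA end, light blue the body of Gly-CCC-1, red Gly-CCC-2 to 4 and violet Gly-CCC-5. The 6 blue bars share bases 60 to 72. The 2 IDs with separate red bars could lie in bases 10 to 37, which include the anticodon, or in 39 to 71.

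Listed tags summed to between 44156 and 57425 per library at 3 months and between 71121 and 96130 at 22 months. The smallest count above 0 in a library was 8 to 11 tags at 3 months and 13 to 17 at 22 months. This is 177 to 204 CPM, that is counts per 1e6 listed tags, and is called the listing minimum. A value of 0 may stand for a count below that minimum or for absence, and the values do not tell which. Replicate 3 at 22 months stood apart: its Spearman correlation with the 3-month libraries over all IDs was 0.577 to 0.702, where the other 22-month libraries gave 0.806 to 0.891. It also had 373 IDs above 0, against 413 to 463 in the other 5 libraries, and 4 of the 14 Gly-CCC IDs at 0, against 1 or 2. Replicate 2 at 22 months is the library in which AS-tDR-010629 was highest. The table lists tRNA fragments only, so the brain label could not be checked against marker genes. In whole brain tissue, fewer cells of a type and less RNA per cell cannot be told apart.

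None of the 13 Gly-CCC IDs that could be tested passed the threshold of 0.05 for the adjusted p (edgeR quasi-likelihood test on all 439 IDs kept, Benjamini-Hochberg), and their adjusted p lay between 0.0699 and 0.885. Over all IDs, 4.78% were called higher and 1.82% lower at 22 months, so a count of 0 among 13 IDs is near the background. DESeq2 called 1 of them (AS-tDR-000249), with 22.1% called over all IDs, and limma-voom called 0, with 10.5% over all IDs. At an unadjusted p under 0.05 edgeR gave 3 (AS-tDR-000249, AS-tDR-008077 and AS-tDR-009892) against a background of 25.5%. The log2 difference (22 minus 3 months) was positive for 7 IDs and negative for 6, with a median of 0.22 beside -0.16 over all IDs tested. The ages did not overlap in 4 of the 13 IDs: AS-tDR-000249 and AS-tDR-008205 were higher in every 22-month library than in any 3-month library, and AS-tDR-009892 and AS-tDR-011558 were lower. Over all IDs 39.4% were separated in either direction, so this count too is not above the background. With scaling by library size alone AS-tDR-008205 overlapped and AS-tDR-013224 was separated, with 4 members and 42.1% of all IDs separated.

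The sign of the difference varied between the 4 kinds of fragment. The CCA-end fragments of Gly-CCC-1 had positive differences in 5 of 6 IDs, and those of Gly-CCC-2 to 4 had negative differences in 4 of 4, although none passed the test. Of all 439 IDs tested, 187 had positive and 252 had negative differences. The 2 IDs of the Gly-CCC-1 body that were tested gave 1 of each sign, and the only Gly-CCC-5 ID was positive. Levels below are CPM scaled with edgeR's TMM factors, in the order of replicates 1, 2 and 3. These sets were formed from the parent lists after the values had been seen.

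AS-tDR-000249, a CCA-end fragment of Gly-CCC-1, was listed at 708, 835 and 676 CPM at 3 months and at 1645, 1034 and 1437 CPM at 22 months. The ages did not overlap, and replicate 2 was the nearest to the 3-month libraries. Its mean was 1.86-fold higher at 22 months, and on the log2 scale the ages differed by 0.89 (SE 0.24, n = 3 against 3, edgeR adjusted p = 0.0699). With DESeq2 the adjusted p was 0.0242, and with edgeR on the IDs above 0 in all 6 libraries, of which 22.1% were called, it was 0.0217. No other member was called by either.

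AS-tDR-008205 was the most abundant of the CCA-end fragments, with 1589, 1392 and 1168 CPM at 3 months and 1765, 1780 and 1929 CPM at 22 months. The 22-month libraries lay close together and just above the 3-month libraries. On the log2 scale the difference was 0.40 (SE 0.18, edgeR adjusted p = 0.237), and it was 0.17 with scaling by library size alone, where the ages overlapped. AS-tDR-008077 was listed at 566, 343 and 307 CPM and then at 518, 1083 and 1423 CPM. Replicates 2 and 3 at 22 months were the high ones, and replicate 1 lay within the 3-month range. The log2 difference was 1.30 (SE 0.45, edgeR adjusted p = 0.128).

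The other 3 CCA-end fragments overlapped between the ages. AS-tDR-000251 was listed at 865, 1414 and 840 CPM at 3 months and at 1247, 1010 and 1368 CPM at 22 months, a log2 difference of 0.22 (SE 0.28), which was 0.58 without replicate 2 at 3 months and 0.089 without replicate 3 at 3 months. AS-tDR-013432 lay near the listing minimum, with 189, 300 and 225 CPM at 3 months and 717, 0 and 411 CPM at 22 months, so that both the highest and the lowest of the 6 libraries were from 22 months. AS-tDR-012684 was listed at 283, 278 and 594 CPM and then at 571, 361 and 0 CPM. For these last 2 the sign rests on a single library at 0 or on a single high one. AS-tDR-013432 turned to -0.21 without replicate 1 at 22 months, and AS-tDR-012684, at -0.31 in all libraries, turned to 0.34 without replicate 3 at 22 months and to 0.15 without replicate 3 at 3 months.

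Summed over the 6 CCA-end IDs, the level was 4199, 4562 and 3810 CPM at 3 months and 6462, 5269 and 6568 CPM at 22 months, a 1.46-fold higher mean with no overlap. With scaling by library size alone the sums were 4650, 4720 and 4212 CPM and 6847, 4556 and 5660 CPM, and replicate 2 at 22 months fell within the 3-month range. The median log2 difference of the 6 was 0.53 with TMM, 0.35 with library size alone and 0.37 with scaling to the smallest listed count.

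**Figure D2:**
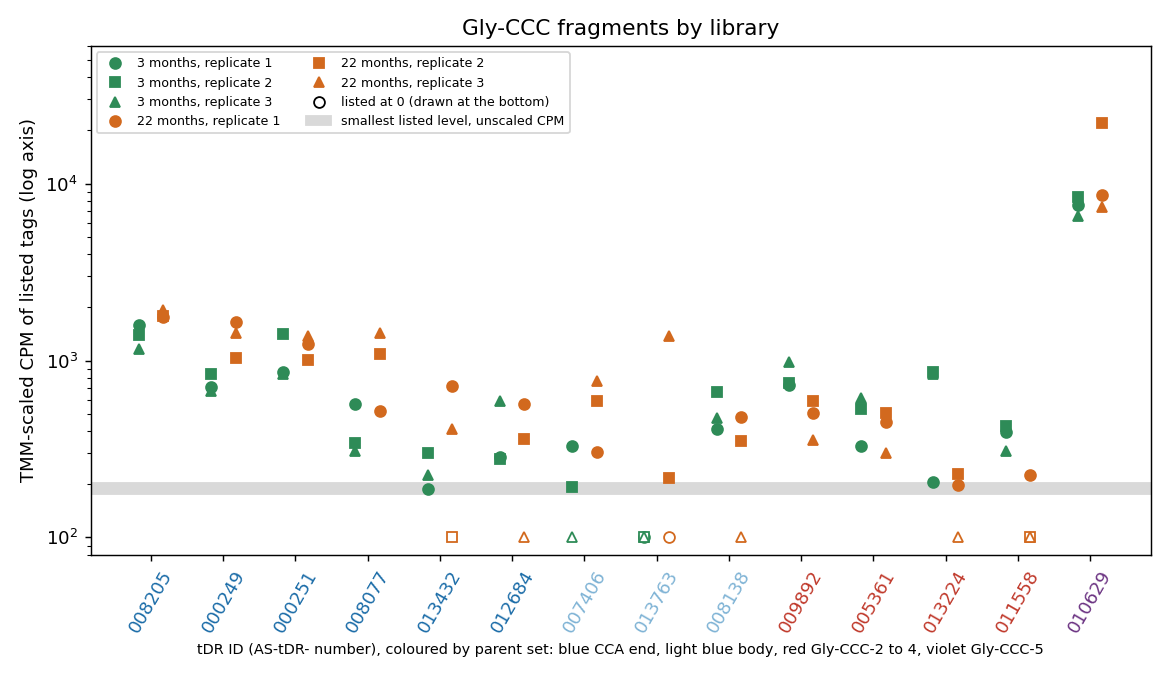
Level of each Gly-CCC fragment in the 6 libraries, on a log axis of TMM-scaled CPM; green symbols are 3 months, orange 22 months, and the shapes are replicates 1 to 3. Open symbols at the bottom are values listed at 0, the grey band is the range of the smallest listed level (177 to 204 CPM, without TMM scaling), and ID colours give the kind of fragment. AS-tDR-010629 lies above all other IDs, with replicate 2 at 22 months highest at 22145 CPM, and none of the 4 IDs in red has a 22-month symbol above its highest 3-month symbol.

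The 4 fragments of Gly-CCC-2 to 4 summed to less than the CCA-end fragments in every library. AS-tDR-009892, the one that reaches CCA, was listed at 723, 750 and 983 CPM at 3 months and at 504, 589 and 356 CPM at 22 months. The ages did not overlap, and replicate 3 was the lowest of the 22-month libraries. Its mean was 0.59 of that at 3 months, or -0.76 on the log2 scale (SE 0.29, edgeR adjusted p = 0.156), and -0.50 without replicate 3 at 22 months. AS-tDR-005361 was listed at 330, 535 and 615 CPM and then at 451, 505 and 301 CPM, which overlap. Its log2 difference of -0.23 (SE 0.38) turned to 0.043 without replicate 3 at 22 months and to 0.027 with limma-voom.

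AS-tDR-013224 and AS-tDR-011558 were at or near the listing minimum at 22 months. AS-tDR-013224 was listed at 204, 857 and 840 CPM at 3 months and at 199, 229 and 0 CPM at 22 months. Replicate 1 at 3 months was as low as the 22-month libraries, and the log2 difference was -2.13 (SE 1.22, edgeR adjusted p = 0.322). AS-tDR-011558 was listed at 393, 428 and 307 CPM and then at 226, 0 and 0 CPM. After scaling every 22-month library lay below every 3-month library. In raw tags, 25, 20 and 15 at 3 months and 17, 0 and 0 at 22 months, replicate 1 at 22 months lay above replicate 3 at 3 months. With the zeros taken as 1 tag below the smallest listed count, the log2 difference shrank from -2.30 (SE 1.71) to -0.79 (SE 0.23) and the edgeR adjusted p became 0.0450, where 19.1% of all IDs were called. With the zeros kept, it was -7.58 without replicate 1 at 22 months, which leaves that age at 0, and -1.69 without replicate 2, so its size depends on what a 0 stands for and on single libraries.

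Summed over the 4 IDs, the level was 1651, 2570 and 2745 CPM at 3 months and 1380, 1323 and 657 CPM at 22 months, or 0.48 of the 3-month mean. The ages did not overlap, with TMM or by library size alone. Replicate 3 at 22 months was the lowest, and it also lists 2 of the 4 IDs at 0; the other 22-month libraries still lay below all 3-month libraries. The median log2 difference of the 4 was -1.44 with TMM, -1.64 with library size alone and -1.58 with scaling to the smallest listed count.

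**Figure D3:**
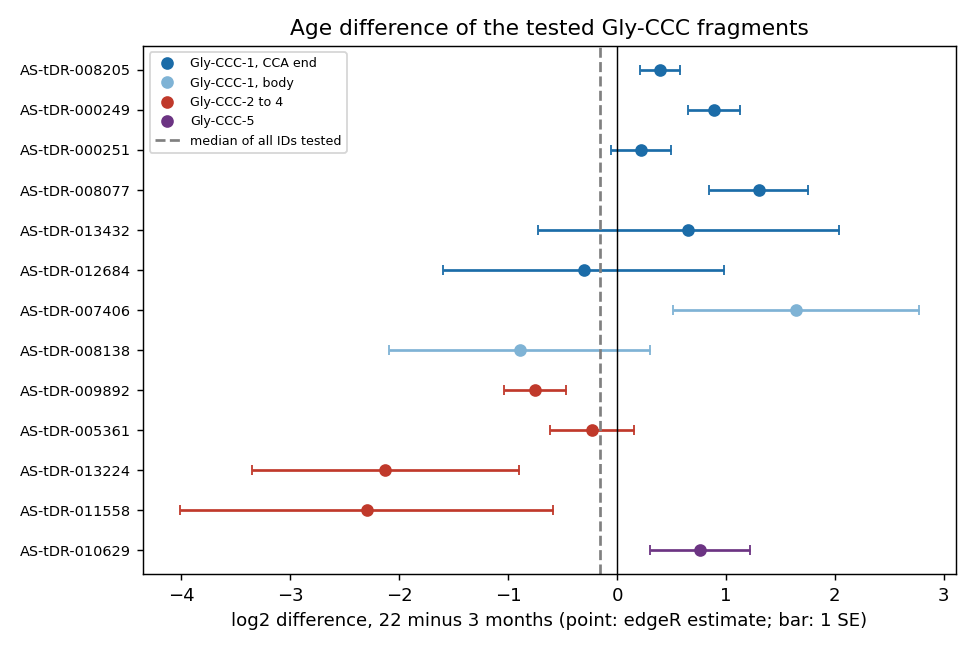
Log2 difference (22 minus 3 months) of the 13 Gly-CCC fragments tested, as fitted by edgeR; points are estimates, bars are 1 SE, and colours are the kinds of fragment. The dashed line is the median of all IDs tested (-0.16). Dark blue points lie above that line except AS-tDR-012684, all red points lie below it, and bars are widest for IDs with values at 0.

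A ratio within a library does not depend on scaling. The CCA-end tags of Gly-CCC-1 numbered 267, 213 and 186 at 3 months and 487, 438 and 480 at 22 months, and the tags of Gly-CCC-2 to 4 numbered 105, 120 and 134, then 104, 110 and 48. Their ratio was 2.54, 1.78 and 1.39 at 3 months and 4.68, 3.98 and 10.0 at 22 months. All 22-month ratios were above all 3-month ratios, and replicate 3 at 22 months was the most extreme, with the ages still apart without it. Because the 2 sets were chosen after their values were seen, the ratio is a description and was not tested.

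**Figure D4:**
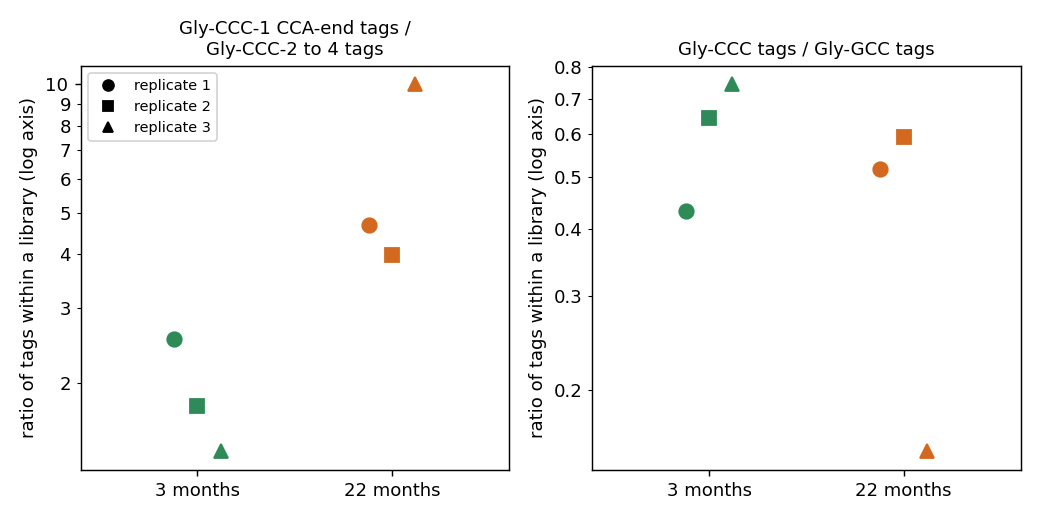
Ratios of summed tags within each library, on log axes, with green for 3 months, orange for 22 months and shapes for replicates 1 to 3. On the left, CCA-end tags of Gly-CCC-1 over tags of Gly-CCC-2 to 4 range from 1.39 to 2.54 at 3 months and from 3.98 to 10.0 at 22 months; on the right, all Gly-CCC tags over Gly-GCC tags overlap between the ages, with replicate 3 at 22 months lowest at 0.154.

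The body fragments of Gly-CCC-1 were mostly rare. AS-tDR-007406 was listed at 330, 193 and 0 CPM at 3 months and at 305, 589 and 766 CPM at 22 months, a log2 difference of 1.64 (SE 1.13), which was 2.51 without replicate 1 and 1.07 without replicate 3 at 3 months. AS-tDR-008138 was listed at 409, 664 and 471 CPM and then at 478, 349 and 0 CPM, a difference of -0.89 (SE 1.20), which was -0.24 without replicate 3 and -1.54 without replicate 1 at 22 months. Both overlapped between the ages. AS-tDR-013763 was listed at 0 in all 3-month libraries and at 0, 217 and 1368 CPM at 22 months, where replicate 3 held 100 tags. It did not pass the filter on low counts and was not tested, and no fold is given against an age listed at 0.

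AS-tDR-010629, the only fragment of Gly-CCC-5-1 alone, was the most abundant Gly-CCC ID in every library. It made up 53.3%, 51.3% and 48.3% of the Gly-CCC tags at 3 months and 50.1%, 74.1% and 43.9% at 22 months. Its level was 7534, 8417 and 6555 CPM at 3 months and 8665, 22145 and 7334 CPM at 22 months. Replicate 2 at 22 months lay far above the other 5 libraries, and replicate 3 at 22 months lay inside the 3-month range. The log2 difference was 0.76 (SE 0.46, edgeR adjusted p = 0.344), and it was 0.16 without replicate 2 at 22 months.

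AS-tDR-010629 was then set against the 8 IDs whose parents include both Gly-CCC and Gly-GCC tRNAs. The ratio of its tags to those of AS-tDR-001297, which lists Gly-CCC-5-1 beside several Gly-GCC tRNAs, was 0.262, 0.260 and 0.277 at 3 months and 0.220, 0.299 and 0.252 at 22 months. The highest of these was 1.36 times the lowest, so both fragments were high together in replicate 2 at 22 months, where AS-tDR-001297 reached 6159 tags. Against the other 7 shared IDs the ratio varied 2.89- to 3.70-fold, but not always across all libraries. For AS-tDR-010307 it was 2.48, 2.64 and 2.52 at 3 months and 2.77, 7.55 and 2.96 at 22 months. Its range thus came from replicate 2 at 22 months, and outside that library its ratio was also steady. Most of these 7 also name Gly-CCC-5-1, so that parent name does not set AS-tDR-001297 apart. This ID was chosen from the 8 after the values were seen, and the likeness over 6 libraries is a description.

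**Figure D5:**
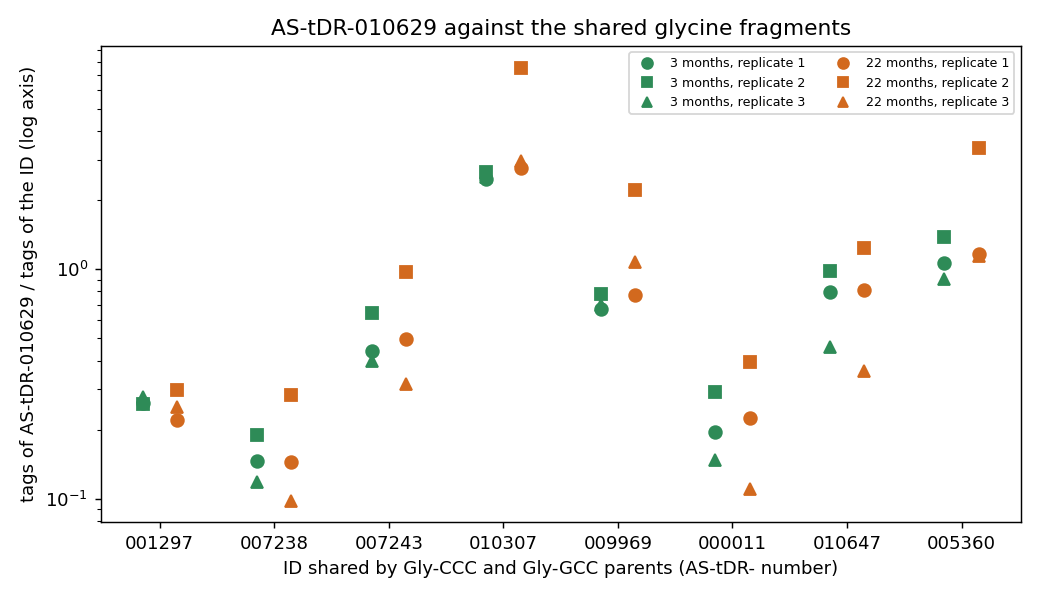
Ratio of the tags of AS-tDR-010629 to those of each ID shared by Gly-CCC and Gly-GCC parents, within each library, on a log axis; green is 3 months, orange 22 months, and the shapes are replicates 1 to 3. The 6 points of AS-tDR-001297 lie between 0.220 and 0.299, and those of the other 7 IDs spread more widely, with replicate 2 at 22 months highest in each. Apart from that library, the points of AS-tDR-010307 lie between 2.48 and 2.96.

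As a group, Gly-CCC fragments took 1.56%, 1.70% and 1.50% of the listed tags at 3 months (mean 1.59% ± 0.10, SD, n = 3) and 1.83%, 2.59% and 1.44% at 22 months (1.95% ± 0.583, SD, n = 3). The ages overlapped because replicate 3 at 22 months was the lowest of all. Of the tags of all glycine fragments they took 6.82% ± 1.09 and 6.55% ± 1.83 (SD, n = 3 each). Most glycine tags belonged to the IDs shared by Gly-CCC and Gly-GCC, which held 15.2% to 23.2% of the listed tags per library; 6 of these 8 IDs name Gly-CCC-5-1 among their parents.

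Tags were also summed for each of 36 anticodons, on a CPM scale of its own that counts only IDs of a single anticodon. Gly-CCC ranked 10th by mean level, with 27630, 29330 and 25082 CPM at 3 months and 30927, 52766 and 24475 CPM at 22 months. The 3-month mean was 27347 ± 2138 CPM and the 22-month mean 36056 ± 14826 (SD, n = 3 each). His-GTG, the next above in this order, had means of 28418 ± 4841 and 36049 ± 12661 CPM, and its libraries overlapped those of Gly-CCC at both ages. Leu-CAA, the next below, had means of 21243 ± 1999 and 40376 ± 6323 CPM, below every Gly-CCC value at 3 months and overlapping at 22 months. The log2 difference of the Gly-CCC sum was 0.40 (SE 0.31, edgeR adjusted p = 0.442), where 13.9% of anticodons were called. It was 0.018 without replicate 2 at 22 months and 0.091 without AS-tDR-010629.

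The sum of Gly-GCC fragments, set beside it as that of another glycine tRNA, differed between the ages by 1.10 on the log2 scale (SE 0.43, edgeR adjusted p = 0.155). Replicate 3 at 22 months held the highest Gly-GCC sum, and without it the difference was 0.64. DESeq2 gave the Gly-GCC sum an adjusted p of 0.0300, with 25.7% of the anticodons called. The ratio of Gly-CCC to Gly-GCC tags within a library was 0.432, 0.645 and 0.745 at 3 months and 0.517, 0.593 and 0.154 at 22 months. The mean log2 ratio differed by -0.71 (22 minus 3 months), which did not hold up against the spread (exact two-sided permutation test, p = 0.4; 3 against 3 libraries cannot give less than 0.1). Without replicate 3 at 22 months the difference was -0.096. By single IDs, 13 of the 19 Gly-GCC IDs tested were positive (median 0.39), 3 of 8 Gly-TCC IDs (median -0.45) and 6 of 8 IDs shared by Gly-CCC and Gly-GCC (median 0.47), and 0 in each of these lists passed the edgeR threshold.

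The anticodon sums most like that of Gly-CCC over the 6 libraries, by Pearson's correlation of log2 CPM, were Glu-CTC (0.69), Ser-CGA (0.67), Lys-CTT (0.61), Glu-TTC (0.50) and Phe-GAA (0.50). Glu-CTC and Lys-CTT share with Gly-CCC their highest value in replicate 2 at 22 months. Ser-CGA and Phe-GAA have 2 and 1 IDs, each near the listing minimum. All points share library and scaling, and no p is given.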

How the data were processed

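Total RNA was extracted with Trizol and sequenced on an Illumina NextSeq, per the labels' protocols. The submitters' processing notes name FastQC, cutadapt, Novoalign and mm10, without versions; not given in the sources used here are the counter, the ID source and the listing minimum. The deposited values are tag counts per ID, per the file headers: whole numbers with totals that differ between libraries, although the table is titled normalized. The table has 3257 lines, 1 per ID and parent, and each of its 591 IDs entered once. Columns named Age and WT were read as 22 and 3 months, with the replicate numbers of the titles.

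Counts were tested with edgeR 4.0.16 under R 4.3.3 (filterByExpr with a minimum count of 10, TMM, quasi-likelihood test, no replicate term), with Benjamini-Hochberg adjustment over 439 IDs; 152 were not tested. The SE was taken as the size of the log2 difference over the root of the F statistic. DESeq2 1.42.0, limma-voom (limma 3.58.1), other scalings, filters and treatments of zeros, a replicate block and leaving out each library were alternatives. The test was tried on simulated data. Likeness between anticodons used log2 CPM with a prior count of 2. Replicates of an age were not duplicates: their chi-square was 6.60 to 59.7 per degree of freedom.

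The members, lists and tests were chosen with earlier results of these data known. With 20 or fewer members, all could be named. Fragments of 1 tRNA overlap and near-identical copies share reads, so IDs are not independent. Loci come from RefSeq (GRCm38.p6) and GENCODE M21. Low totals limit the precision of IDs near the listing minimum. Python steps used pandas 2.3.3 and matplotlib 3.10.9. The labels do not say that replicate numbers pair the libraries, and they were not taken as pairs. Correlated deviations of same-numbered libraries were not seen, but so few libraries cannot exclude a pairing.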

Additional observations from a re-analysis of the deposited data

How the results depend on the processing

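The count of Gly-CCC IDs past the threshold was 0 with edgeR and 1 with DESeq2, with IDs above 0 in all 6 libraries and with zeros replaced by 1 tag less than the library's smallest count; it ranged from 0 to 0 when each library was left out. Over all IDs the same count was 29 with edgeR, 97 with DESeq2, 46 with limma-voom, 64 for IDs above 0 in all libraries, 84 with zeros set, and 0 with scaling by library size, scaling to the smallest listed count, no filter or the replicate block; it was 21 without replicate 2 and 30 without replicate 3 at 22 months, and 0 without any one of the other 4 libraries. The median log2 difference of the members went from 0.22 to -0.15 with the replicate block and ranged from -0.21 to 0.48 with a library left out. Scaling moved the median of all IDs from -0.16 to -0.35 (library size) and -0.31 (smallest listed count), and that of the members to 0.011 and 0.022. The sum of Gly-CCC tags ranged from 0.018 to 0.61 with a library left out and was 0.32 with the replicate block; the ratio to Gly-GCC ranged from -1.07 to -0.096. Signs turned for AS-tDR-005361 (0.027 with limma-voom, 0.043 without replicate 3 at 22 months, range -0.45 to 0.043 with a library left out), AS-tDR-013432 (-1.12 with limma-voom, -0.15 with the replicate block, -0.21 without replicate 1 at 22 months, range -0.21 to 1.30) and AS-tDR-012684 (0.15 without replicate 3 at 3 months, 0.34 without replicate 3 at 22 months, 0.029 with zeros set, range -1.08 to 0.34). The cause was not tested. Of the repeats for single IDs, 165 kept their sign and side of the threshold, 8 turned sign as given here, and 3 crossed the threshold (AS-tDR-000249 with DESeq2 and with IDs above 0 in all libraries, AS-tDR-011558 with zeros set). Same-numbered libraries correlated at -0.46, 0.04 and -0.34 in their deviations, and differently numbered ones at -0.069 to 0.44. With so few libraries per age these values cannot exclude a pairing. The replicate block left no Gly-CCC ID past the threshold. Counts of 8 to 17 tags at the listing minimum limit every ID with a 0.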

Other observations

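A further 9 IDs list Gly-CCC precursors only, all of them pre-Gly-CCC-1-1 together with pre-Gly-CCC-1-2, and so name a tRNA before its ends are trimmed. They were not counted as Gly-CCC members above. Their summed tags were 38, 10 and 0 in replicates 1, 2 and 3 at 3 months and 104, 132 and 318 at 22 months. With TMM scaling the sums were 598, 214 and 0 CPM, then 1380, 1588 and 4351 CPM. Each 22-month library held more than any 3-month library on both scales. An ID at 0 throughout 1 age enters this sum only through the other age, so the sum is a description and was not tested. Only AS-tDR-008235 (16, 10 and 0 tags, then 17, 35 and 28) and AS-tDR-000644 (22, 0 and 0 tags, then 18, 48 and 48) passed the filter on low counts. Their log2 differences were 1.13 (SE 1.21) and 2.03 (SE 1.58), and neither passed the edgeR threshold. Both overlapped between the ages after TMM scaling, where 39.4% of all IDs tested did not overlap.

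The other 7 were listed at 0 in every 3-month library, and so are in the table through 22-month libraries alone. Over all 591 IDs, 424 values were 0 at 3 months and 528 at 22 months, beside 24 and 11 for the 9 precursor IDs. The share of all IDs listed at 0 throughout 1 age was not counted. AS-tDR-003121 had 0, 19 and 79 tags at 22 months, and AS-tDR-001285 had 0, 30 and 28. AS-tDR-013764 and AS-tDR-013798 were listed in replicate 3 alone, with 54 and 62 tags, AS-tDR-013687 and AS-tDR-013436 in replicate 1 alone, with 23 and 24 tags, and AS-tDR-009931 had 22, 0 and 19. The smallest listed counts are 8 to 11 tags at 3 months and 13 to 17 at 22 months, and library totals are larger at 22 months. The replicate that lists most of them, replicate 3 at 22 months, is the one that stood apart over all IDs, and its part in these values was not tested.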
